A study of Mus musculus with 5 samples.

Results

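The genes of iron handling and ferroptosis were examined in single-cell RNA of mouse kidney after unilateral ischemia-reperfusion (UIR), a model of acute kidney injury (AKI). The set was given by gene symbol and held 10 of the 32285 genes of the count matrix, and each of the 10 symbols matched 1 row: Tfrc, Slc40a1, Cp, Fth1, Ftl1, Hmox1, Slc7a11, Gpx4, Aifm2 and Acsl4. Per the study's methods, the mice were male C57BL/6J and the left renal pedicle was clamped for a time while the right kidney stayed intact. Kidneys labelled AKI came from days 1, 3, 14 and 28, and the fifth sample was a sham kidney, so each of the 5 conditions had 1 sample in the labels. The study's methods describe more matrices than the 5 libraries held here, and how they map onto these libraries is not known. The labels gave no other allele or agent. Each sample is described as tissue pooled or taken from several mice, which the labels do not separate. The matrix held 5 libraries of droplets, told apart by a number at the end of the barcode. No label ties that number to a condition, so the libraries are called 1 to 5 here, no value below is a value at a day or in sham, and no p-value was computed.

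Iron enters most cells on transferrin through the transferrin receptor (Tfrc), is stored inside ferritin shells of heavy (Fth1) and light (Ftl1) chains, and leaves through ferroportin (Slc40a1), with ceruloplasmin (Cp) oxidising it on the way to transferrin. Haem oxygenase 1 (Hmox1) frees iron from haem, a main task of macrophages that take up dying red cells. Ferroptosis is a form of cell death in which iron drives the peroxidation of membrane lipids. Acsl4 loads polyunsaturated fatty acids into phospholipids and so favours it, whereas the cystine importer Slc7a11, the lipid peroxidase Gpx4 and the ubiquinone reductase Aifm2 (also called FSP1) counter it. Proximal tubule cells of the kidney are known to be sensitive to ferroptosis in ischemic injury.

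Some of these transcripts are known to carry iron-responsive elements, hairpins bound by the iron regulatory proteins when iron is low. Binding near the 5′ end of a transcript blocks its translation, and binding in the 3′ untranslated region (UTR) protects it from decay. They are shown because they mark members that the iron regulatory proteins may control after transcription. A count of RNA does not see such control for the ferritins and ferroportin. Other control after transcription was not searched for. The transcripts of GENCODE vM21 (GRCm38) were searched for a C, 5 stem bases, the loop CAGTGN (last base not G) and 5 bases that pair with the stem (G with U allowed). A match in a UTR was found for 4 of the 10 members and for 0.590% of 22527 protein-coding genes. The loops are in capitals, in DNA letters, on the strand of the transcript.

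Fth1 (5′ UTR, chr19:9982732-9982761, + strand): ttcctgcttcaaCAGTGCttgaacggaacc
Ftl1 (5′ UTR, chr7:45459778-45459807, - strand): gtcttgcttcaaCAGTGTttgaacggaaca
Slc40a1 (5′ UTR, chr1:45925464-45925493, - strand): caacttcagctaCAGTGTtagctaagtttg
Tfrc (3′ UTR, chr16:32631219-32631248, + strand): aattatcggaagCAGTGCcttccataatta
Tfrc (3′ UTR, chr16:32631598-32631627, + strand): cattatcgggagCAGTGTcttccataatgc
Tfrc (3′ UTR, chr16:32631663-32631692, + strand): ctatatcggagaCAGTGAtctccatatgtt
Tfrc (3′ UTR, chr16:32631710-32631739, + strand): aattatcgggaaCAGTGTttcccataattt

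The search fixed every base of the loop but the last, so likeness of the loops is no result. Tfrc held 4 sites. No site of this form was found in the UTRs of Cp, Hmox1, Slc7a11, Gpx4, Aifm2 or Acsl4.

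After cell calling and filtering, 57757 cells were kept, 8301 to 19027 per library, with library medians of 4038 to 5324 unique molecular identifiers (UMIs, a count per captured RNA molecule). Library 3 stood apart: it held 43748 barcodes of at least 500 UMIs, against 13956 to 18809 in the others, and 5915 of the 7963 cells that reached no marker limit. Among kept cells, 353 of 57403 barcode sequences occurred in more than 1 library. Cells were placed in classes by marker genes, none of which is a member. Of the classes the text turns on, 1168 cells were neutrophil-like, 906 macrophage-like, 40601 proximal tubule-like and 816 injured tubule-like (Havcr1, Krt20, Vcam1, Sox9 and others). Their median depths were 1272, 3929, 5310.0 and 7107 UMIs, in the same order. All 10 neutrophil, 10 macrophage, 12 proximal tubule and 6 injured tubule markers were detected in at least 10% of the cells of their class. The labels name the cell type Goblet cell, which these classes do not bear out. Library 5 held only 2 neutrophil-like and 5 injured tubule-like cells and gives no value for them, since a value needed 20 cells.

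Levels below are counts per 1000000 (CPM): the UMIs of a gene summed over the cells of a class in a library, per 1000000 UMIs of those cells. Intervals are exact 95% intervals and cover counting error only. Shares of cells with a UMI pool the libraries unless a library is named, so their intervals leave out the spread between libraries. Free RNA enters droplets of every class, so its own level is given where it matters. It was measured in barcodes too shallow to be called as cells and is called ambient. These barcodes held up to 489 UMIs in library 3, near the limit of 500, against at most 85 to 225 in the others. Whether those of library 3 hold cells was not tested. If each proximal tubule marker UMI in the myeloid classes were ambient, ambient RNA would make up 10.4% to 41.0% of neutrophil-like and 6.88% to 17.1% of macrophage-like UMIs.

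**Figure D1:**
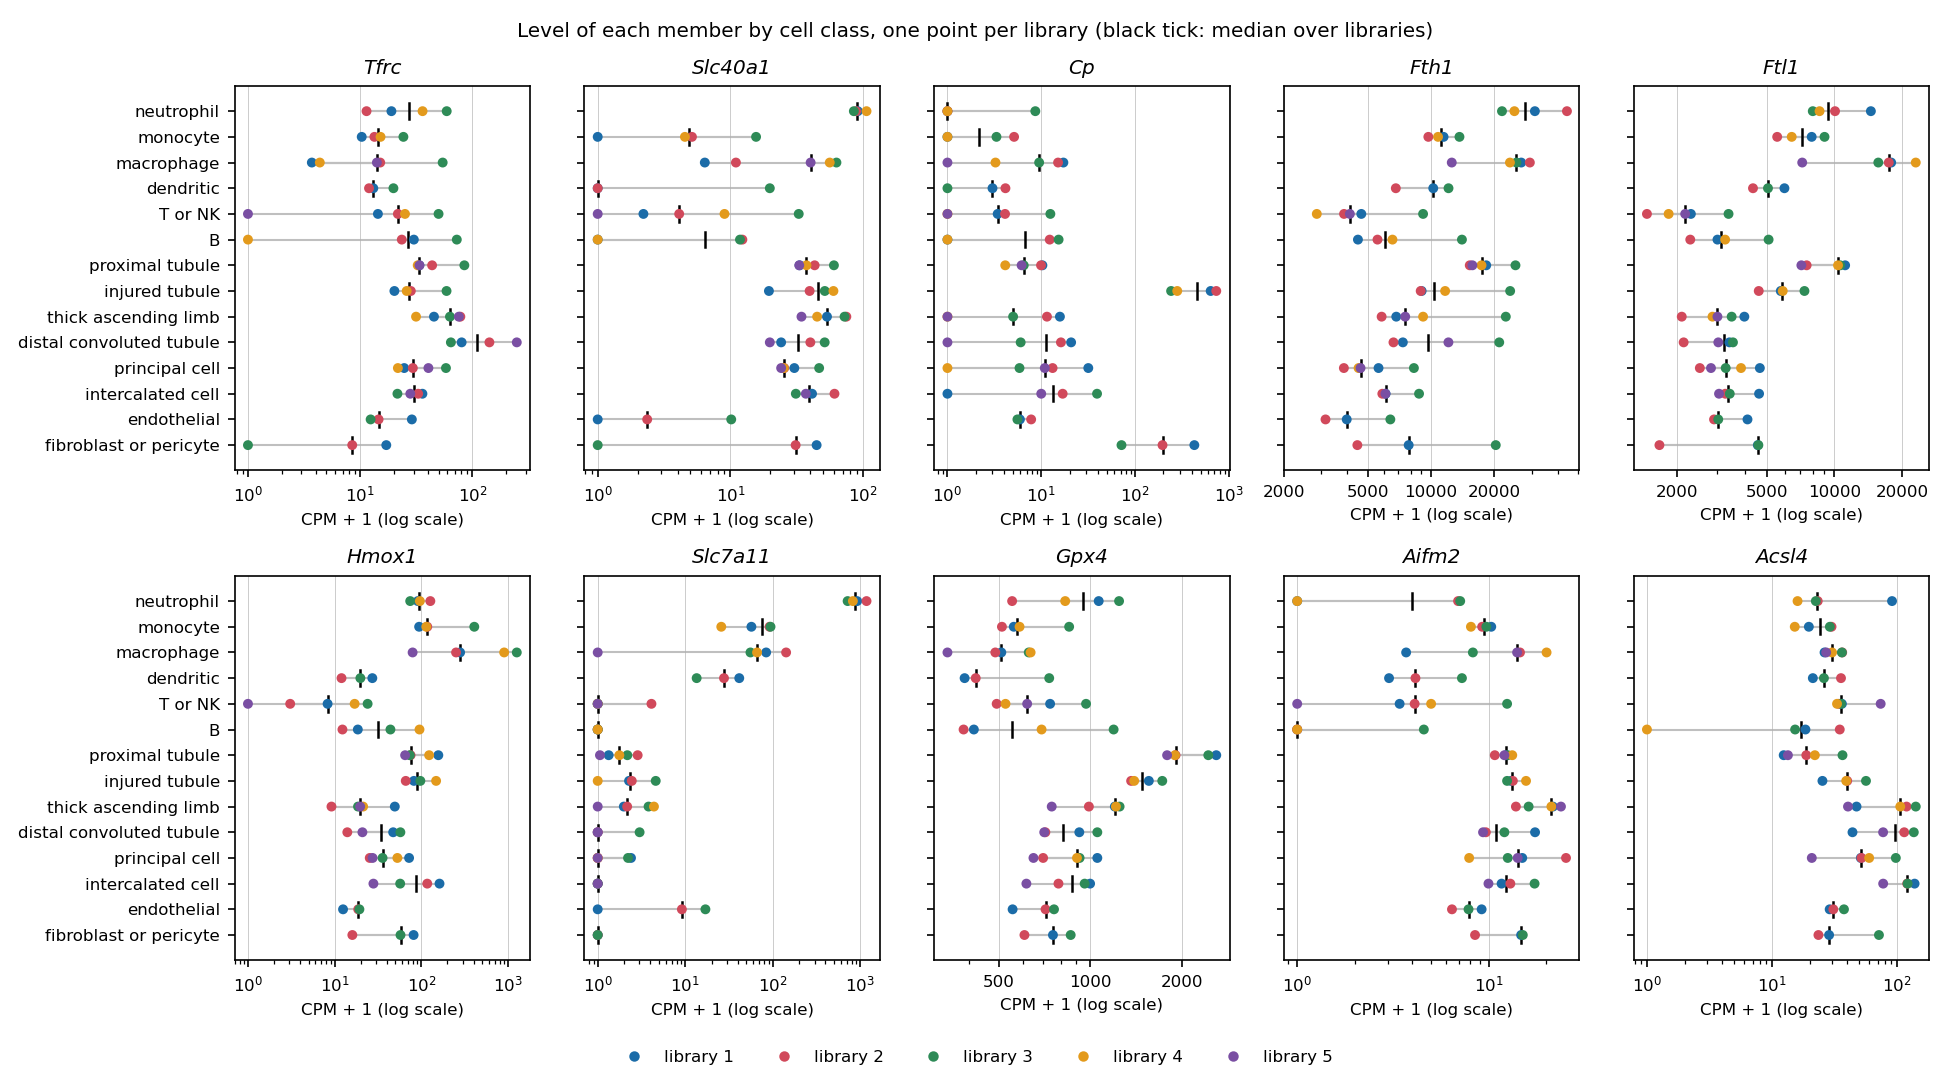
Level of the 10 members in 14 cell classes, as CPM + 1 on a log axis that differs between panels; each point is 1 library with at least 20 cells of the class, and the black tick is the median. Slc7a11 stands apart in neutrophil-like cells (715 to 1176 CPM), Cp in injured tubule-like and fibroblast or pericyte-like cells, and Gpx4 in proximal tubule-like cells (1784 to 2586 CPM).

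Tfrc, the receptor for iron-loaded transferrin, had its highest median over libraries in distal convoluted tubule-like cells. Its level there was 79.3 CPM in library 1, 141 in library 2, 63.4 in library 3 and 248 in library 5. It was above that of thick ascending limb-like cells in 4 of 4 libraries, although the ranges of both classes overlapped. In library 3 thick ascending limb-like cells were close, at 62.2 CPM, and proximal tubule-like (83.9 CPM) and B-like cells (71.7 CPM) were higher. A Tfrc UMI was seen in 34.4% of distal convoluted tubule-like cells (95% interval 30.3 to 38.7), against 4.23% of T or NK-like cells, whose median depth was 1673 against 4286 UMIs. By library the share in distal convoluted tubule-like cells was 14.3%, 32.8%, 25.5% and 49.5% in libraries 1, 2, 3 and 5. In cells thinned to 1000 UMIs the pooled shares of these classes were 13.6% and 2.17%. Thinned shares, here and below, leave out cells with fewer than 1000 UMIs. Proximal tubule-like cells had 32.7, 42.8, 83.9, 31.6 and 32.8 CPM in libraries 1 to 5. Library 3 was thus the high one, with the other libraries close together, and the ambient level of Tfrc was also highest in library 3 (72.9 CPM, against 10.8 to 25.5 elsewhere); the part of ambient RNA in this was not tested. Macrophage-like cells held 2.71, 14.1, 53.4, 3.37 and 13.1 CPM, fewer than proximal tubule-like cells in each of the 5 libraries. These values rest on 3, 24, 44, 3 and 1 UMIs, and the interval of library 5 (0.330 to 72.7 CPM) includes the proximal tubule-like level there.

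Slc40a1, which encodes ferroportin, the known iron exporter of vertebrate cells, had its highest level in neutrophil-like cells and the most even one. They held 90.1, 87.5, 84.1 and 105 CPM in libraries 1 to 4, above every library of thick ascending limb-like cells (33.3 to 73.7 CPM), the next class. The spread of 1.27-fold between the highest and lowest library was smaller than that of all but 2.15% of genes in that class, or all but 10.4% without library 1. The value of library 1 rests on 5 UMIs (interval 29.3 to 210.4 CPM). In macrophage-like cells Slc40a1 ran from 5.41 CPM in library 1 and 10.0 in library 2 to 61.9 in library 3, 55.0 in library 4 and 39.2 in library 5. Libraries 1 and 2 lay apart from libraries 3 and 4 with intervals that did not overlap, whereas the 3 UMIs of library 5 allow no placing. Monocyte-like cells were at 0 to 14.6 CPM. A Slc40a1 UMI was seen in 10.7% of neutrophil-like, 6.40% of macrophage-like and 1.33% of T or NK-like cells, and after thinning to 1000 UMIs in 7.92%, 2.66% and 0.632%. Deep enough for thinning were 896 of 1168 neutrophil-like, 827 of 906 macrophage-like and 1107 of 1206 T or NK-like cells. The ambient level was at most 36.7 CPM, below that of neutrophil-like cells in every library.

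Within the proximal tubule the exporter followed the segment. Cells with S1 markers (Slc5a2, Slc5a12; 12443 cells) were compared with cells with S3 markers (Slc7a13, Cyp7b1; 11009 cells). Slc40a1 was lower in S3 than in S1 cells in 5 of 5 libraries, at 23.9 against 58.7 CPM in library 1, 26.5 against 67.9 in library 2, 38.3 against 67.3 in library 3, 27.9 against 45.7 in library 4 and 20.9 against 66.1 in library 5. The median log2 ratio was -1.30, and -1.14 among cells of 5000 to 15000 UMIs.

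Cp, the copper ferroxidase ceruloplasmin, marked 2 classes. Injured tubule-like cells held 638 CPM in library 1, 732 in library 2, 241 in library 3 and 280.3 in library 4. Fibroblast or pericyte-like cells held 427, 195 and 70.6 CPM in libraries 1 to 3, lower than injured tubule-like cells in 3 of 3 libraries but with overlapping ranges. In both classes library 3 was the lowest. In the other 12 classes the pooled level was at most 20.4 CPM. The 8 fibroblast or pericyte markers together made up 208 CPM in injured tubule-like cells, and their part in the Cp level there was not tested. A Cp UMI was seen in 49.5% of injured tubule-like cells (46.0 to 53.0), 40.3% of fibroblast or pericyte-like cells (31.6 to 49.5), 2.46% of proximal tubule-like cells and 0.746% of T or NK-like cells. By library the share in injured tubule-like cells was 78.3%, 69.9%, 23.5% and 43.6% in libraries 1 to 4, each outside the pooled interval. In fibroblast or pericyte-like cells it was 57.6%, 34.4% and 19.0% in libraries 1 to 3. Among proximal tubule-like cells Cp was also higher in the 2546 cells with a UMI of Havcr1, the kidney injury molecule KIM-1, than in the 38055 without, at 12.7 against 5.78 CPM over all libraries. The direction was the same in 5 of 5 libraries, with a median log2 ratio of 2.32 (range 0.81 to 3.55), or 2.04 among cells of 5000 to 15000 UMIs. The ambient level of Cp was 5.56 to 29.1 CPM, above proximal tubule-like cells in each library. It was above the cells with a Havcr1 UMI in libraries 2 to 4 (15.6, 8.09 and 12.6 CPM) and below them in libraries 1 and 5 (41.3 and 56.5 CPM). The part of ambient RNA in these values was not tested.

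Fth1, the ferritin heavy chain that oxidises iron for storage, was high throughout. Neutrophil-like cells held 31116, 44179.7, 21722 and 24881 CPM in libraries 1 to 4, and macrophage-like cells 26811, 29454, 25449.7, 23695 and 12544 CPM in libraries 1 to 5. The ranges overlapped, and neutrophil-like cells were the higher class in 3 of 4 libraries. Proximal tubule-like cells were between 15272 and 25171 CPM, with library 3 highest. T or NK-like and endothelial-like cells were lowest, with medians of 4118 and 3979 CPM. The ambient level of Fth1 was 8706 to 12728 CPM in libraries 1, 2 and 4, 17183 in library 5 and 28020.2 in library 3, so in library 3 the ambient level was above that of neutrophil-like, macrophage-like and proximal tubule-like cells, and in library 5 above that of the last 2. Thick ascending limb-like cells, at 5828 to 9169 CPM in the other libraries, had 22646 CPM in library 3. The part of ambient RNA in that value was not tested. They were not alone: the highest library was at 23749 CPM in injured tubule-like cells (median 10346) and 21077 in distal convoluted tubule-like cells (median 9722). Fibroblast or pericyte-like cells reached 20291 CPM (median 7833), whereas intercalated-like cells reached 8773 CPM (median 6080.5).

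Ftl1, the light chain that helps to lay down the iron core, was highest in macrophage-like cells. They held 17891, 17453, 15679, 23012 and 7192 CPM in libraries 1 to 5, above proximal tubule-like cells in 5 of 5 libraries (11162, 7525, 10610.4, 10380.4 and 7129 CPM). In library 5 that difference was 0.01 on the log2 scale, so the order rests on the other 4. The ambient level of Ftl1 was 4391 to 9883 CPM, and in library 5 (9883 CPM) it was above both classes. Neutrophil-like cells, at 8013 to 14530.4 CPM, were not set apart from proximal tubule-like cells. Ftl1 is nearly identical to the copy Ftl1-ps1, which had 133 CPM in macrophage-like and 60.1 CPM in proximal tubule-like cells over all libraries, and reads that fit both could not be divided with certainty. Over 58 groups of 1 class in 1 library, Ftl1 was the gene most like Fth1 among 12663 genes (Pearson r = 0.82 of log2 levels), and Plin2 (r = 0.87), a lipid droplet coat protein, was most like Ftl1. The groups share libraries and ambient RNA, so these are descriptions.

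Both ferritin chains were higher in macrophage-like cells with a UMI of Gpnmb, a gene of lysosome-rich macrophages, than in those without, a split chosen after the class values were seen. Fth1 was at 46153 against 19748 CPM in library 2 and 31044 against 18467 in library 4. Ftl1 was at 27549 against 11585 CPM and 36168 against 13653 CPM in the same libraries, the only ones with 20 cells on both sides. Cells with a Gpnmb UMI were deeper (median 9674 against 3605 UMIs). Among cells of 5000 to 15000 UMIs the median log2 ratio fell from 0.98 to 0.46 for Fth1, from 1.33 to 0.91 for Ftl1 and from 0.87 to 0.78 for Gpx4. Slc40a1 had 12.8 against 8.39 CPM in library 2 (8 against 9 UMIs) and 5.40 against 90.3 CPM in library 4 (2 against 47 UMIs). The counting interval of the log2 ratio included 0 in library 2 (-0.96 to 2.16), so only library 4 showed a direction (-7.15 to -2.13). The difference between the libraries was not tested. In proximal tubule-like cells Ftl1 was lower in S3 than in S1 cells in 5 of 5 libraries (median log2 ratio -0.80), whereas Fth1 was higher in 4 of 5 (median 0.28).

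Hmox1, the haem-degrading enzyme, was highest in macrophage-like cells and differed widely between libraries there. They held 279 CPM in library 1 (309 UMIs), 250.5 in library 2 (425 UMIs), 1260.2 in library 3 (1039 UMIs), 901 in library 4 (802 UMIs) and 78.3 in library 5 (6 UMIs, interval 28.7 to 170.5 CPM). Libraries 3 and 4 were high, libraries 1 and 2 lower and close to each other, and library 5 lowest. The spread of 14.9-fold between the highest and lowest library exceeded that of 97.8% of genes in macrophage-like cells, where the median was 1.25 on the log2 scale (0.5 counts added). It rests largely on the 44 cells of library 5, without which it was 5.03-fold, still above that of 95.5% of genes. Monocyte-like cells held 93.3, 116, 407 and 113 CPM in libraries 1 to 4, so library 3 was the high one there too. Neutrophil-like cells, at 73.4 to 126 CPM, and proximal tubule-like cells, at 64.0 to 156 CPM, did not share the rise in library 3, where they had 73.4 and 72.7 CPM. The ambient level of Hmox1 was 45.1 to 85.0 CPM and was 50.7 CPM in library 3. The 5 erythroid markers summed to 14.1 CPM in macrophage-like cells, and none was detected in 10% of them. Cells with markers of 2 lineages had been left out before, which limits this sum in advance. An Hmox1 UMI was seen in 43.6% of macrophage-like cells (40.3 to 46.9), 28.8% of proximal tubule-like cells and 1.58% of T or NK-like cells, and after thinning to 1000 UMIs in 20.7%, 7.79% and 0.632%. Before thinning, the share in macrophage-like cells was 42.9%, 35.4%, 60.5%, 52.6% and 9.09% in libraries 1 to 5.

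Subsets of macrophage-like cells did not place Hmox1 in the same way in every library. Cells with a UMI of Gpnmb had 438 CPM against 142 without in library 2, and 627 against 1095 in library 4. Cells with a UMI of Arg1, the arginase of wound-type macrophages, had 368 against 217 CPM in library 2, 1622 against 1006 in library 3 and 654 against 1013 in library 4. The sign in library 4 was thus opposite to that of the other libraries under both splits. Cells with the marker UMI were deeper (medians of 9674 against 3605 UMIs for Gpnmb and 6733 against 3588 for Arg1). Each log2 ratio had a counting interval without 0, but these intervals leave out the spread between cells. Cells with the marker were few, 45 and 35 for Gpnmb in libraries 2 and 4, and 27, 61 and 32 for Arg1 in libraries 2 to 4. The difference between libraries was not tested.

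**Figure D2:**
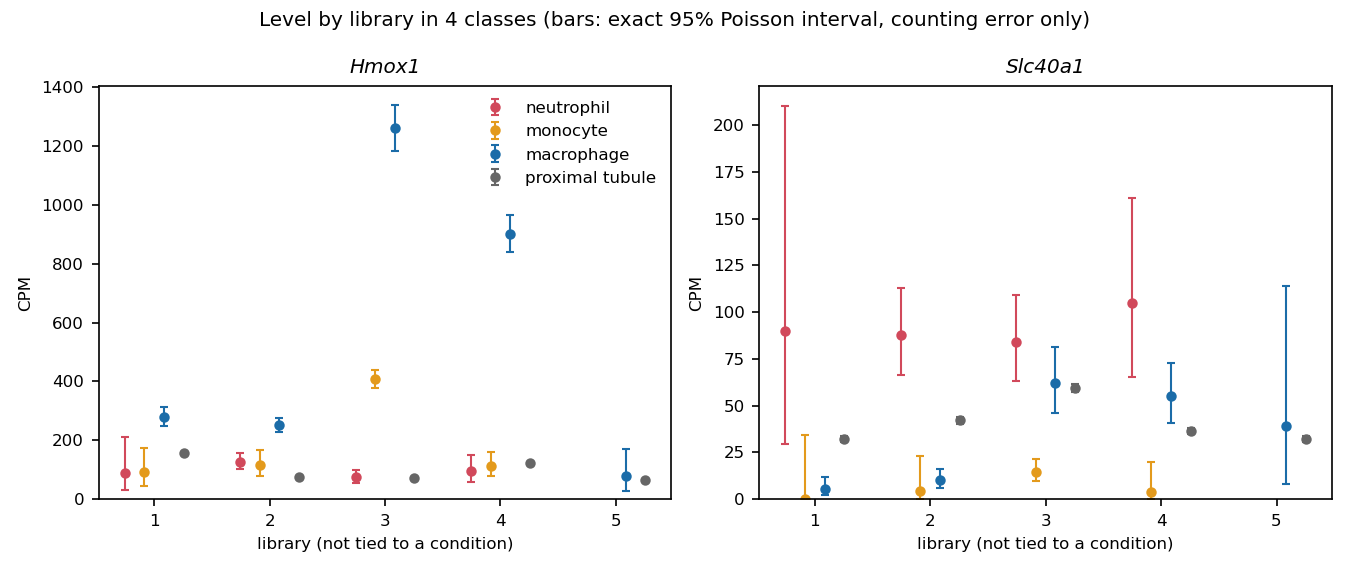
Level of Hmox1 and Slc40a1 in CPM by library in neutrophil-like, monocyte-like, macrophage-like and proximal tubule-like cells, with exact 95% Poisson bars for counting error. Hmox1 in macrophage-like cells is at 1260.2 CPM in library 3 and 901 in library 4 against 78.3 to 279 elsewhere, while Slc40a1 in neutrophil-like cells stays between 84.1 and 105 CPM.

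Slc7a11, the light chain of the cystine importer that feeds glutathione synthesis, was largely a neutrophil transcript in these kidneys. Neutrophil-like cells held 919 CPM in library 1, 1176 in library 2, 715 in library 3 and 821 in library 4, with no overlap with any other class. Monocyte-like cells held 56.0, 90.9, 93.2 and 24.8 CPM in the same libraries. Macrophage-like cells held 83.0, 141, 54.6 and 65.1 CPM, and 0 UMIs in library 5, where 3 UMIs would make 39.2 CPM. The order of monocyte-like and macrophage-like cells thus changed between libraries, and their ranges overlapped. The tubule classes were near the floor: proximal tubule-like cells had 0.865 CPM over all libraries (212 UMIs), and B-like, intercalated-like and fibroblast or pericyte-like cells had no UMI, where 3 UMIs would make 5.10, 1.80 and 4.51 CPM. A Slc7a11 UMI was seen in 57.2% of neutrophil-like cells (54.3 to 60.1), 14.9% of macrophage-like cells (12.6 to 17.4), 0.278% of proximal tubule-like cells and 0.166% of T or NK-like cells. The ambient level was 0.309 to 6.87 CPM. The 10 neutrophil markers summed to 131 CPM in macrophage-like cells, against 105068 CPM in neutrophil-like cells, and none was detected in 10% of macrophage-like cells. In monocyte-like cells they summed to 1588 CPM, with 5 of 10 detected in at least 10% of cells, and their part in the Slc7a11 level of that class was not tested. Cells with markers of 2 lineages had been left out before these sums were taken, which limits them in advance.

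Within the neutrophil-like cells, the 111 cells with a UMI of Siglecf, a gene of tissue-aged neutrophils and of eosinophils, had less Slc7a11. The levels were 500.1 against 1272 CPM in library 2 and 349.7 against 949.7 CPM in library 4, the only libraries with 20 cells on both sides, at median depths of 1324 and 1268 UMIs over all libraries. Both differences were larger than the counting error. The heavy chain Slc3a2, which Slc7a11 needs to reach the membrane and which also serves other amino acid transporters, was spread over all classes, with 314 CPM in neutrophil-like, 361 in macrophage-like and 191 in proximal tubule-like cells. The genes most like Slc7a11 over the 58 groups were Sirpb1b (r = 0.94), Cd300lb (r = 0.93) and Tlr13 (r = 0.93).

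The promoter of Slc7a11 is shown because Slc7a11 was high in 1 class and at or near 0 in most others. The window of 250 bases before the start was taken from RefSeq's annotation of GRCm38.p6 (chr3:50443614-50443863, - strand). Windows were found for 8 of the 10 members, and Hmox1 and Slc40a1 had none. All were searched on both strands for the antioxidant response element (TGACNNNGC) and the amino acid response element (TGATGNAA). The latter occurs 2 times in this window, at 66 and 47 bases before the start and on opposite strands (capitals). It was in no other member's window and in 3.45% of 32851 promoters. The antioxidant response element was in 10.2% of promoters and in none of the 14 windows of members.

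Slc7a11: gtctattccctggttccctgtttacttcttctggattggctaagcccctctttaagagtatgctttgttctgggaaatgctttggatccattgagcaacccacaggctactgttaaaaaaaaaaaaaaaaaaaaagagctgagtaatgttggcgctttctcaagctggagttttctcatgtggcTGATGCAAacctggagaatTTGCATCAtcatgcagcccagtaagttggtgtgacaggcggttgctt

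A match describes letters and does not show that a factor binds there.

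Gpx4, which reduces peroxidised membrane lipids with glutathione, was highest in proximal tubule-like cells. They held 2586, 1901, 2435, 1894 and 1784 CPM in libraries 1 to 5. Injured tubule-like cells held 1554, 1359.5, 1719.8 and 1391 CPM in libraries 1 to 4, lower than proximal tubule-like cells in 4 of 4 libraries and with no overlap of the ranges. Thick ascending limb-like cells came next at 746 to 1246 CPM, without overlap with injured tubule-like cells, but their range overlapped that of neutrophil-like cells (1064, 553, 1241 and 826 CPM in libraries 1 to 4). Macrophage-like cells held 509.6, 487, 627, 636 and 339 CPM in libraries 1 to 5, below proximal tubule-like cells in each. The ambient level of Gpx4 was 1021 to 2611 CPM, above that of macrophage-like and neutrophil-like cells in each of their libraries and above that of proximal tubule-like cells in libraries 3 and 5. The part of ambient RNA in the myeloid values was not tested. In proximal tubule-like cells Gpx4 was higher in S3 than in S1 cells in 5 of 5 libraries, with a median log2 ratio of 0.40 (0.25 to 0.53). Gss, the last enzyme of glutathione synthesis, was the gene most like it over the 58 groups (r = 0.88).

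Aifm2, the ubiquinone reductase that acts beside Gpx4, was low in all classes. Its pooled level was at most 16.9 CPM, in thick ascending limb-like cells, and proximal tubule-like cells held 11.3, 9.78, 11.6, 12.3 and 11.1 CPM in libraries 1 to 5. The highest library was thus 1.25-fold above the lowest, less than in all but 16.9% of genes in that class, a share that ran from 2.78% to 41.1% with 1 library left out. Aifm2 was higher in S3 than in S1 cells in 5 of 5 libraries, with a median log2 ratio of 0.31 (0.09 to 0.44), but the counting interval included 0 in each of the 5. Neutrophil-like cells held 8 UMIs in all (5.05 CPM, 2.18 to 9.94), and the immune classes held 1 to 50 UMIs each, too few to order them.

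Acsl4, the ligase that supplies the lipids that peroxidise, was led by the distal nephron. Intercalated-like cells held 137, 119.5, 120.3 and 76.4 CPM in libraries 1, 2, 3 and 5, and thick ascending limb-like cells 46.4, 118, 140.0, 105 and 39.5 CPM in libraries 1 to 5. Distal convoluted tubule-like cells had 43.0 to 135 CPM and principal-like cells 19.8 to 96.7 CPM, so the ranges of these 4 classes overlapped. Injured tubule-like cells held 24.3, 38.9, 55.4 and 38.2 CPM. Proximal tubule-like cells held 11.4, 17.8, 35.6, 21.0 and 12.4 CPM in libraries 1 to 5, lower than injured tubule-like cells in each shared library. Library 3 was high in both classes, and the ambient level of Acsl4 was also highest there (38.3 CPM, against 7.41 to 25.5); the part of ambient RNA in this was not tested. The spread of 3.12-fold between libraries in proximal tubule-like cells exceeded that of 95.5% of genes, and without library 3 it was 1.84-fold (87.6% of genes). An Acsl4 UMI was seen in 52.9% of intercalated-like cells (44.8 to 60.9), 25.7% of injured tubule-like and 6.80% of T or NK-like cells, and after thinning in 8.84% of intercalated-like, 4.71% of injured tubule-like and 3.43% of T or NK-like cells. In proximal tubule-like cells the share was 10.5%, above that of the shallower T or NK-like cells, although their level was lower (medians of 17.8 against 34.6 CPM), so no order is read from these shares.

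For some members the pooled ratio differed from those within libraries. Over all libraries, proximal tubule-like cells with a Havcr1 UMI had more Acsl4 (30.9 against 19.1 CPM) and more Tfrc (67.5 against 43.9 CPM) than those without. Library 3 held 1785 of the 2546 cells with a Havcr1 UMI. Within libraries the median log2 ratio was 0.14 for Acsl4 (-0.21 to 1.27) and 0.05 for Tfrc (-0.11 to 0.15, in the 4 libraries with 5 UMIs on both sides). Cells with a Havcr1 UMI were deeper (median 7452 against 5167 UMIs), and among cells of 5000 to 15000 UMIs the medians were -0.14 for Acsl4, lower in 3 of 5 libraries, and -0.08 for Tfrc, lower in 3 of 4. The same held for Tfrc between segments: the pooled log2 ratio of S3 over S1 cells was -0.21, but Tfrc was higher in S3 cells in 5 of 5 libraries (0.14 to 0.90).

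**Figure D3:**
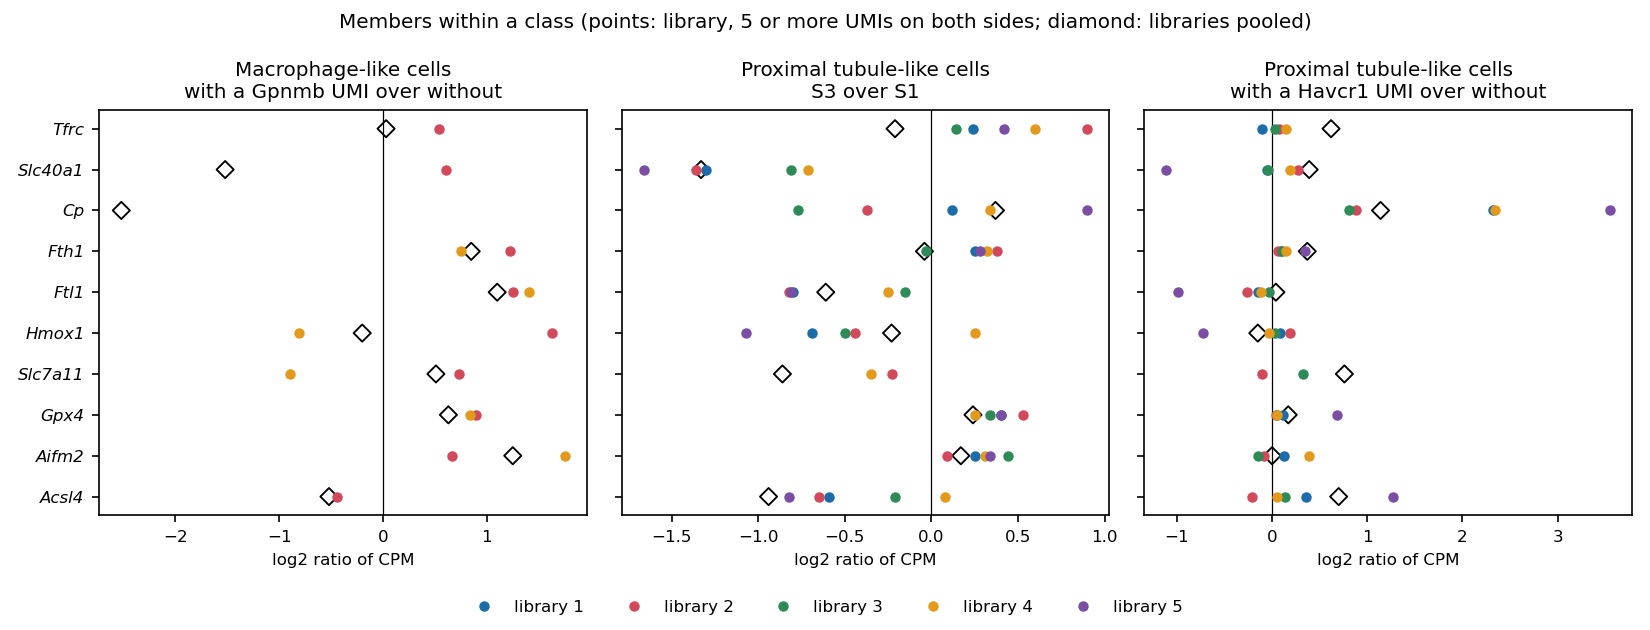
Log2 ratio of CPM between subsets of a class, for each member; points are libraries with at least 5 UMIs on both sides and open diamonds are all libraries pooled. For S3 over S1 cells Slc40a1 and Ftl1 lie below 0 and Gpx4, Aifm2 and Tfrc above 0 in all 5 libraries, while for Havcr1 the pooled values of Tfrc (0.62) and Acsl4 (0.70) lie away from most of their libraries.

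Which library was highest was also counted over the set. In proximal tubule-like cells, 7 members were above 20 CPM, and 4 of them (Tfrc, Slc40a1, Fth1 and Acsl4) were highest in library 3, as were 32.8% of the 5139 genes tested. The other 3 (Ftl1, Hmox1 and Gpx4) were highest in library 1, as were 33.7% of genes. In macrophage-like cells, 3 of 7 were highest in library 2, as were 15.5% of 4892 genes, 2 in library 3, as were 32.7%, and 2 in library 4, as were 13.2%. In neutrophil-like cells, 2, 3, 2 and 1 of 8 were highest in libraries 1 to 4, as were 26.7%, 22.4%, 21.5% and 29.4% of 4469 genes.

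The 4 class comparisons were then made within each library, for genes of at least 20 CPM in either class. A gene was counted as higher or lower if the median log2 ratio over libraries was at least 1 in size (2-fold) and the sign was the same in every library. The comparisons share cell classes and libraries and are not independent of each other. In each of them 8 of the 10 members passed the limit of 20 CPM. Cp and Aifm2 fell below it in the comparisons of macrophage-like and neutrophil-like cells, and Slc7a11 and Aifm2 in that of injured tubule-like cells.

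Macrophage-like cells were higher than neutrophil-like cells for 1 member, Hmox1, beside 19.9% of 5736 genes, and lower for 2, Slc40a1 and Slc7a11, beside 18.1% of genes. The median log2 ratio was 0.19 over all 10 members, those under 20 CPM included, and 0.11 over all genes tested. For Hmox1 it was 2.35 (0.98 to 4.09 over 4 libraries), for Slc7a11 -3.56 (-3.70 to -3.05) and for Slc40a1 -2.03 (-4.08 to -0.44). Hmox1 was at 3.21 without library 1 or 2 and at 1.49 without library 3 or 4. The call of Slc40a1 was lost without library 1 or library 2 (-0.95 in both cases), and its ratio was -3.10 without library 3 or 4. Tfrc, lower in 3 of 4 libraries, was counted without library 2 (-3.10). Ftl1 was higher in 4 of 4 libraries at a median of 0.88 and was not counted.

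Against proximal tubule-like cells, macrophage-like cells were higher for Hmox1 (median 1.76, range 0.41 to 4.12 over 5 libraries) and Slc7a11 (6.40), 2 members beside 21.6% of 6512 genes. They were lower for Tfrc (-1.57, -3.37 to -0.64) and Gpx4 (-1.96, -2.37 to -1.57), 2 members beside 27.6% of genes. The median was 0.59 over all 10 members and -0.19 over all genes tested. With cells thinned to 1000 UMIs, Hmox1 had a ratio of 1.45 and was not counted. For Slc7a11 the ratio in library 5 depends on the 0.5 counts added to avoid division by 0, and the other 4 libraries gave 5.54 to 7.92. Its level in proximal tubule-like cells was near the floor, on which the size of these ratios rests. Tfrc stayed past the limit without library 1 or 4 (-1.16) and without library 3 or 5 (-2.29). Acsl4 had a median of 1.00 that fell just short of the limit, and it was counted without library 3 or 4 (1.08). In library 3 proximal tubule-like cells had 35.6 CPM, and no library of macrophage-like cells was above 35.4 CPM. The positive sign of Acsl4 in library 3 thus comes from the 0.5 counts added.

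Neutrophil-like cells were higher than proximal tubule-like cells for Slc40a1 (1.32, 0.52 to 1.62 over 4 libraries) and Slc7a11 (9.67, 9.24 to 11.39), 2 members beside 22.3% of 6352 genes. They were lower for 1, Gpx4 (-1.23, -1.78 to -0.97), beside 36.8% of genes. The medians were -0.05 over all 10 members and -0.56 over all genes tested. Slc7a11 in proximal tubule-like cells was at 0.334, 1.86, 1.18 and 0.767 CPM in libraries 1 to 4. Its ambient level there was 0.309, 6.87, 1.52 and 1.45 CPM. The size of its ratio thus rests on a level near the floor. With cells of at most 10% mitochondrial counts, the ratio of Slc40a1 was 0.95 and no longer counted.

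Injured tubule-like cells were higher than proximal tubule-like cells for 1 member, Cp (6.23, 5.45 to 6.48 over 4 libraries), beside 17.8% of 6581 genes, and lower for 0 of the 8, beside 8.28% of genes. The median was -0.06 over all 10 members and 0.31 over all genes tested. Gpx4 (-0.49), Ftl1 (-0.76), Fth1 (-0.67) and Tfrc (-0.59) were each lower in 4 of 4 libraries but by less than 2-fold. Acsl4 was higher in 4 of 4 libraries (0.64 to 1.13) with a median of 1.00 that fell just short of the limit, and without library 3 or library 4 it was 1.10 and counted.

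**Figure D4:**
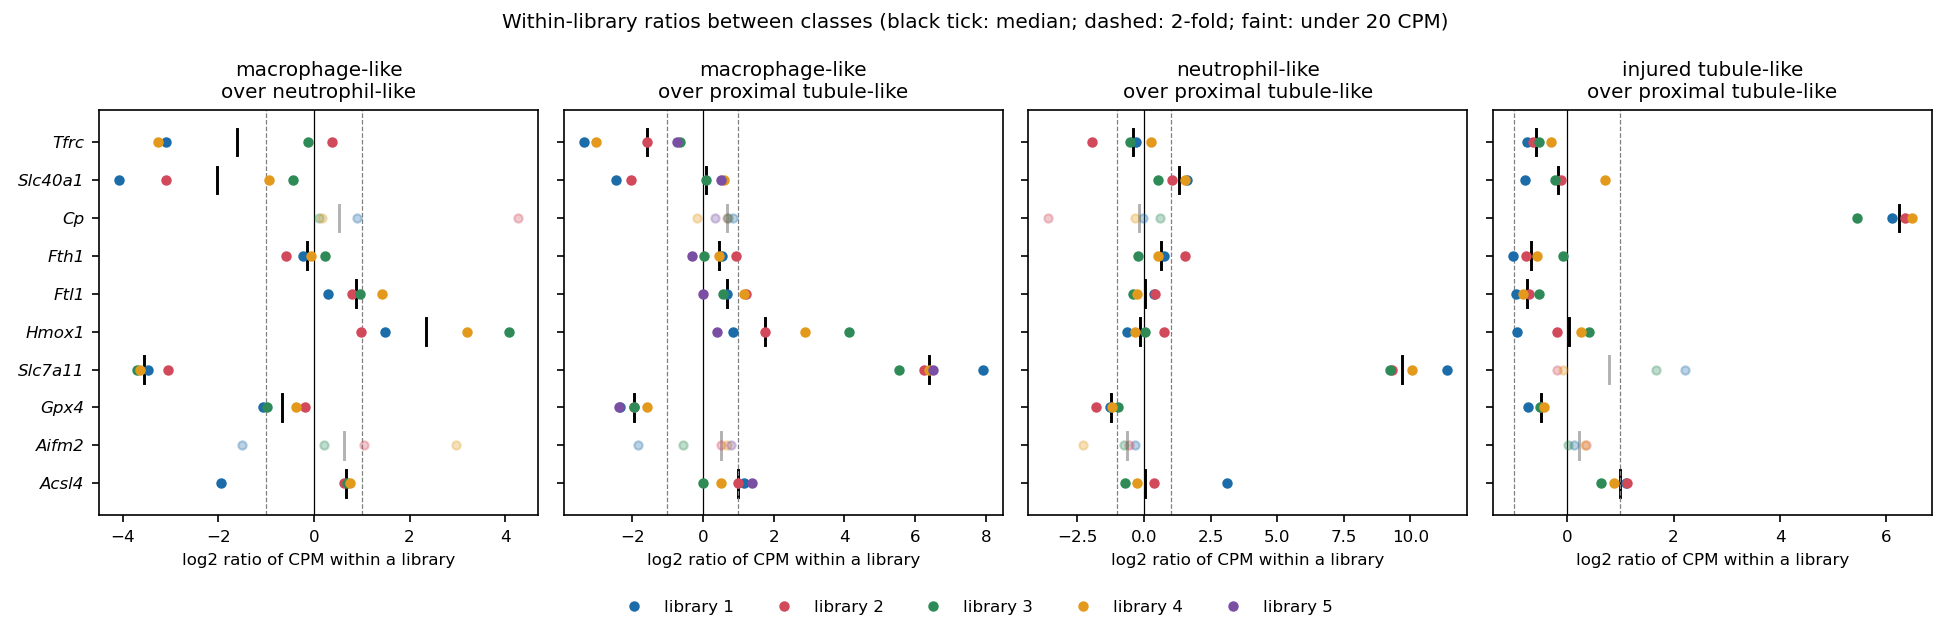
Log2 ratio of CPM between 2 classes within a library, for each member; points are libraries, the black tick is their median, dashed lines mark 2-fold and faint points are members under 20 CPM in both classes. Slc7a11 is 9.24 to 11.39 higher in neutrophil-like than in proximal tubule-like cells and Cp 5.45 to 6.48 higher in injured tubule-like than in proximal tubule-like cells. In proximal tubule-like cells both genes are near or below their ambient level.

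The wider pathways gave the members a setting, through 74 further genes in 5 lists. Between macrophage-like and neutrophil-like cells, 12 of the 50 listed genes tested were higher and 11 lower, beside 19.9% and 18.1% of all genes, so the lists as a whole lay near the background. The haem and haemoglobin list had 4 of 6 higher and 1 lower, the iron uptake and export list 2 of 8 higher and 3 lower, the storage, chaperone and sensing list 1 and 1 of 8, the defence list 2 and 2 of 15, and the lipid peroxidation list 3 and 4 of 13. The higher genes of the haem list included Lrp1, the receptor that takes up haem bound to haemopexin (219.7 against 11.4 CPM over all libraries), and Blvrb, which acts on biliverdin (329.8 against 46.7 CPM). Its haptoglobin gene Hp was lower (13.1 against 1222 CPM). Of the iron uptake and export list, the siderophore-binding Lcn2 (15.4 against 1461 CPM) and the metalloreductase Steap4 (median log2 ratio -4.99) were lower, whereas Trf, transferrin itself (491 against 107 CPM), and the iron importer gene Slc11a2 (28.7 against 6.94 CPM), both named after their values were seen, were higher.

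Against proximal tubule-like cells, 13 of 46 listed genes were higher and 11 lower in macrophage-like cells, and 14 of 51 higher and 17 lower in neutrophil-like cells. Over all genes the shares were 21.6% and 27.6% in macrophage-like cells and 22.3% and 36.8% in neutrophil-like cells, so these counts too lay near the background. Slc11a1, the iron exporter of phagosomes, had 142 against 0.482 CPM in macrophage-like cells, and Trf 491 against 5.12 CPM. In neutrophil-like cells lactoferrin (Ltf, 45.4 against 0.0245 CPM) and 5-lipoxygenase (Alox5, 81.4 against 0.0898 CPM) were among the higher genes. The endocytic receptors Cubn and Lrp2, which take up filtered proteins including iron carriers, were lower in both. Of the 16 tested genes of the cystine, glutathione and other defences, 3 were higher and 6 lower in macrophage-like cells, and 3 higher and 8 lower in neutrophil-like cells (27.6% and 36.8% of all genes were lower), with Gss lower in both (28.7 and 54.9 against 254 CPM).

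In injured tubule-like cells 7 of 42 listed genes were higher and 4 lower, beside 17.8% and 8.28% of all genes, which is near the background. The higher ones included Lcn2, the injury marker NGAL (355 against 13.9 CPM), and the small heat-shock protein gene Hspb1 (591 against 15.8 CPM). Lcn2 was higher still in thick ascending limb-like (2155 CPM) and principal-like cells (2816 CPM) over all libraries. The lower ones were Lrp2 (median log2 ratio -1.94), Cubn (64.8 against 178 CPM), the quinone reductase gene Nqo1 (16.9 against 37.2 CPM) and Cisd1, of the outer mitochondrial membrane (333 against 735 CPM). The 12 proximal tubule markers were also lower in these cells, at 4048 against 18133 CPM. Cells were placed by their highest marker score, which favours that order in advance, so it is no further result. None of the lists had a median ratio above 0.30 in size in this comparison except that of iron uptake and export, at -0.35.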

How the data were processed

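Kidney cells of 5 samples, 1 per condition, were measured with 10x Genomics 3′ libraries. The deposited file holds the authors' raw UMI counts per gene and barcode, merged over 5 libraries and not filtered for cells (Cell Ranger 6.0 per the submitters' processing notes, mm10). RefSeq (GRCm38.p6) gave the promoter. Here cells were called in each library by rank and then against the ambient profile (barcodes ranked 45000 to 90000, 10000 simulations, adjusted limit 0.01). From 70479 called barcodes, 518 with under 200 genes and 12671 with over 25% mitochondrial counts were left out (467 failed both limits). Cells took the class with the highest marker score (at least 0.1, 2 markers, no other lineage above 0.5 of it), and 1321 cells with markers of 2 lineages were left without a class. Doublets were otherwise kept. Scrublet marked 306 cells at its own threshold, 14 in library 1 and 0 in libraries 4 and 5, which is too few there, so it was only used at a fixed rate in an alternative.

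The members and lists were chosen with earlier results of these data known, and gate limits were set on the markers. From the lists, the 4 genes with the largest median ratio in each direction could be named. Splits within a class were chosen after class values were seen. No test was run: conditions could not be compared, and the class comparisons, made within each of 4 or 5 libraries, are given as medians and ranges. Calling and the 2-fold rule were tested on simulated data. Python 3.11.15, numpy 2.4.6, scipy 1.17.1 and scanpy 1.11.5 were used.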

Additional observations from a re-analysis of the deposited data

How the results depend on the processing

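The counts of members past the 2-fold rule were recomputed under 18 alternatives, one at a time (cell calling, gene and mitochondrial limits, gates, doublets, depth, averaging, ambient RNA, the limit on low values and each library left out). With the ambient profile subtracted, 2 members were higher in macrophage-like than in neutrophil-like cells (Ftl1 joined). With cells thinned to 1000 UMIs, 1 was lower there (Slc40a1 was not counted, at a ratio of -1.73 against -2.03) and 1 was higher in macrophage-like than in proximal tubule-like cells (Hmox1 was not counted, at 1.45 against 1.76). With genes from 100 CPM, fewer genes were tested, and the counts were 1 lower against neutrophil-like cells, 1 higher and 1 lower in macrophage-like and 1 higher in neutrophil-like against proximal tubule-like cells. At most 10% mitochondrial counts left 1 member higher in neutrophil-like cells and gave 1 lower in injured tubule-like cells (Ftl1). In injured tubule-like cells, 2 members were higher (Acsl4 joined) with a stricter gate, thinned cells or pooled libraries. Leaving out a library gave 1 to 2 members lower in macrophage-like than in neutrophil-like cells and 1 to 2 higher in injured tubule-like cells. Changes that left the count within 1.5 times were Acsl4 joining the higher members of macrophage-like against proximal tubule-like cells (3) with at most 10% mitochondrial counts, a looser gate, the highest Scrublet scores left out, or library 3 or 4 left out, and Tfrc joining the lower members against neutrophil-like cells (3) with pooled libraries. The cause was not tested. Of the 11 calls, 6 were made under all 18 alternatives, and no ratio that was called changed direction. The restriction of subsets to 5000 to 15000 UMIs and the spread between libraries with 1 library left out were added after seeing the data. The former moved 12 of 34 within-class ratios by more than the spread between libraries.

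No paired analysis was possible because, between conditions, there is 1 sample each and no label ties a library to a condition. The class comparisons were paired, being taken within each library, and no test over libraries was run. Depth limits the low genes: 3 UMIs make 1.89 CPM in neutrophil-like and 0.653 CPM in macrophage-like cells over all libraries, and values of Aifm2 and Tfrc in the immune classes rest on few UMIs.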
